A study of Arabidopsis thaliana with 6 samples.

Results

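The genes described here encode the small subunit of Rubisco, in 4 copies named RBCS1A, RBCS1B, RBCS2B and RBCS3B, and Rubisco activase, RCA. They were picked by gene identifier, but they and the gene lists below were chosen with earlier results of these data known. They are 5 of the 33557 genes in the authors' table. The seedlings were Arabidopsis thaliana of the Landsberg erecta accession (Ler in the labels), and were either phyA-1, a mutant of the far-red photoreceptor gene PHYA, or wild type. The labels name no transgene or further allele. Both genotypes spent 4 days in darkness and then 3 hours under far-red light, and polyadenylated RNA was taken from seedlings in 3 independent replicates of each genotype. Every level is the authors' pooled value for a genotype in FPKM, that is mapped fragments scaled to transcript length and library size, so no spread between replicates can be given and read depth is unknown. No seedlings kept in darkness were analysed, so a difference present before the light and one that arose under it cannot be told apart. A gene was called where the q-value in the authors' deposited table was 0.05 or below, and rose and fell are used for called genes, in phyA-1 relative to wild type.

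Rubisco is the chloroplast enzyme that fixes carbon dioxide onto ribulose bisphosphate at the start of the Calvin cycle. Its large subunit is encoded in the chloroplast genome and its small subunits by a family of nuclear genes, whose products are made in the cytosol as precursors and imported. Rubisco activase is an ATP-driven remodelling protein that releases inhibitory sugar phosphates from the active site. RBCS transcripts are a textbook case of light-regulated mRNA in seedlings, and phytochrome is one of the photoreceptors through which light acts on them.

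The 4 small subunit genes lie at 2 places. RBCS1A (AT1G67090) is at chr1:25048158-25049424, while RBCS3B (AT5G38410, chr5:15377173-15378416), RBCS2B (AT5G38420, chr5:15380945-15382035) and RBCS1B (AT5G38430, chr5:15384117-15385247) follow each other within 8075 bp of chromosome 5. RCA (AT2G39730) is at chr2:16570746-16573548. All coordinates are those of the deposited table on TAIR10, and all 5 genes are on the minus strand. In RefSeq's annotation of TAIR10.1, the coding sequence is 543 bases in 3 exons for RBCS1A, 546 bases in 3 exons for each chromosome 5 copy, and 1425 bases in 7 exons for RCA.

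How far the copies can be told apart bears on their separate values, so coding sequence from both ends of the gene is shown. All sequence given here is that of the reference genome, and the sequence of the Ler seedlings was not examined. The first 90 coding bases (RefSeq, TAIR10.1, from the start codon, 5′ to 3′) are given with capitals where a copy differs from RBCS1A. RBCS1A is written all in lower case.
RBCS1A: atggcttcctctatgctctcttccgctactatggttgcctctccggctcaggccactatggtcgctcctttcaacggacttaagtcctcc
RBCS1B: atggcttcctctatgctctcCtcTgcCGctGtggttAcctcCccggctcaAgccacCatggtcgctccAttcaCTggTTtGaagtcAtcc
RBCS2B: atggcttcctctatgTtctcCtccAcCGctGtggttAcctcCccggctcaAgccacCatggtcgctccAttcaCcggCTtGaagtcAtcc
RBCS3B: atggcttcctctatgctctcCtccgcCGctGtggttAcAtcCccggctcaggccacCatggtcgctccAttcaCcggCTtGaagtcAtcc
In this stretch RBCS1B and RBCS2B each differed from RBCS1A at 16 of 90 bases and RBCS3B at 14. Among themselves the chromosome 5 copies differed at 4 or 5 bases.

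Near the other end of the coding sequence the copies are closer. Coding bases 439 to 528 of RBCS1A and the aligned bases of the other copies are shown with the same use of capitals.
RBCS1A: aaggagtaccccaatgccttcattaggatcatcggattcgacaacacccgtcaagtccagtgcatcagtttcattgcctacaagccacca
RBCS1B: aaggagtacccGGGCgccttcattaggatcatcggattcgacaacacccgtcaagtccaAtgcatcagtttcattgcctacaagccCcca
RBCS2B: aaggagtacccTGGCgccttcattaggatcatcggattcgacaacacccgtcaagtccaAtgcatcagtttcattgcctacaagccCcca
RBCS3B: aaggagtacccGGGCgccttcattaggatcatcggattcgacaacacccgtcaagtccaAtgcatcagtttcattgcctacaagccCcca
Each chromosome 5 copy differed from RBCS1A at 6 of these 90 bases. RBCS1B and RBCS3B were identical here, and RBCS2B differed from either at 1 base.

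Over the whole coding sequence, RBCS1A was 89.9% to 90.1% identical to the chromosome 5 copies, which were 96.7% to 97.3% identical to each other. The longest identical run was 233 bases between RBCS1B and RBCS3B, 96 between RBCS2B and RBCS3B, 89 between RBCS1B and RBCS2B, and at most 67 between RBCS1A and any other copy. Of the 50-base words inside coding exons, all in RBCS1A and RCA occurred once in the nuclear genome, against 66.9% in RBCS2B, 47.9% in RBCS3B and 47.6% in RBCS1B. In the spliced coding sequence, 3.64% of the 50-base words of RBCS1A were shared with another copy, as were 18.3% of its 25-base words, against 38.0% to 51.9% and 62.6% to 73.6% in the chromosome 5 copies. The parts of the transcripts outside the coding sequence were not compared in this way. The sources used here do not give the read length or how fragments matching several places were assigned. The split among RBCS1B, RBCS2B and RBCS3B is therefore uncertain, and their sum and the level of RBCS1A may also depend on that assignment, RBCS1A over a smaller share of its sequence.

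Transcripts of Rubisco activase and of the 3 chromosome 5 small subunit genes were lower in phyA-1 seedlings than in wild-type seedlings, while the most abundant copy, RBCS1A, did not pass the authors' test. In all, 4 of the 5 genes fell and none rose, where 8.54% of the 22892 genes tested by the authors were called lower in phyA-1 and 8.61% were called higher. These transcripts are abundant, and among the 714 tested genes with a mean of at least 200 FPKM, 13.9% were called lower and 13.7% higher. The photoreceptor gene itself, PHYA, had 16.04 FPKM in phyA-1, against 167 FPKM in wild type, and its q in the authors' deposited table was 0.00045.

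RBCS1A had the highest level of the 5 genes in both genotypes, with 4466 FPKM in phyA-1 and 5991 FPKM in wild type. It ranked 5th of all tested genes in phyA-1 and 4th in wild type. Its phyA-1 level was 74.5% of wild type, a log2 ratio of -0.42 on the scale of FPKM plus 1 that is used for all ratios here. In the authors' deposited table p was 0.141 and q 0.309, so RBCS1A was not called, which does not show that the genotypes had equal levels.

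RBCS2B had 1390 FPKM in phyA-1 and 2102 FPKM in wild type, a log2 ratio of -0.60. It fell by the least of the called small subunit and activase genes, with p = 0.00395 and q = 0.02 in the authors' deposited table. A stricter limit on q of 0.01, at which 6.52% of all tested genes were lower and 5% higher, would leave it uncalled. RBCS2B lies between the other chromosome 5 copies on the chromosome.

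RBCS3B had 1194 FPKM in phyA-1 and 2325 FPKM in wild type, a log2 ratio of -0.96. RBCS1B, the copy with the lowest level, had 214 FPKM in phyA-1 and 683 FPKM in wild type, a log2 ratio of -1.67. Both had the lowest p the table holds, 5e-05, and a q of 0.00045 in the authors' deposited table. The phyA-1 level was thus 51.3% of wild type for RBCS3B and 31.3% for RBCS1B. Because RBCS1B and RBCS3B share the longest identical stretch, their sum is also given, and it was 1407 FPKM in phyA-1 and 3008 FPKM in wild type, a log2 ratio of -1.10.

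RCA had 337 FPKM in phyA-1 and 1020 FPKM in wild type. Its log2 ratio was -1.59, and in the authors' deposited table p was 5e-05 and q 0.00045. No 50-base word of its coding sequence is shared with the small subunit genes, so its value does not depend on how their reads were split. Its rank among tested genes was 348 in phyA-1 and 68 in wild type.

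**Figure D1:**
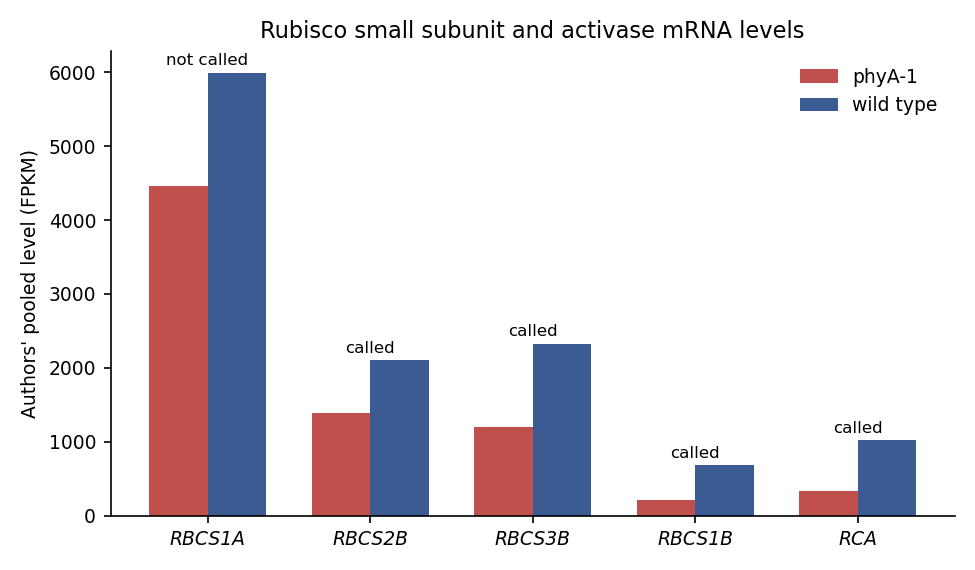
Pooled level in FPKM of each gene in phyA-1 (left bar) and wild type (right bar), with 1 value per genotype and therefore no error bars; the words above the bars give the call in the authors' deposited table. RBCS1A reached 4466 FPKM in phyA-1 and 5991 FPKM in wild type without a call, and the other 4 genes were called lower in phyA-1.

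Relative to all tested genes, the ratios were at the low end. RBCS1B had a log2 ratio that 1.04% of tested genes matched or went below, RCA one that 1.17% did, RBCS3B 3.13%, RBCS2B 6.20% and RBCS1A 9.20%. The median log2 ratio was -0.96 over the 5 genes, 0.05 over all tested genes and 0.12 over those with a mean of at least 200 FPKM. For RBCS1A, 31 other tested genes with a mean of at least 200 FPKM, a bound far below its own level, had a log2 ratio within 0.1 of its own, and 11 of them were called. Their median absolute test score was 1.58, against 0.835 for RBCS1A in the authors' deposited table.

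**Figure D2:**
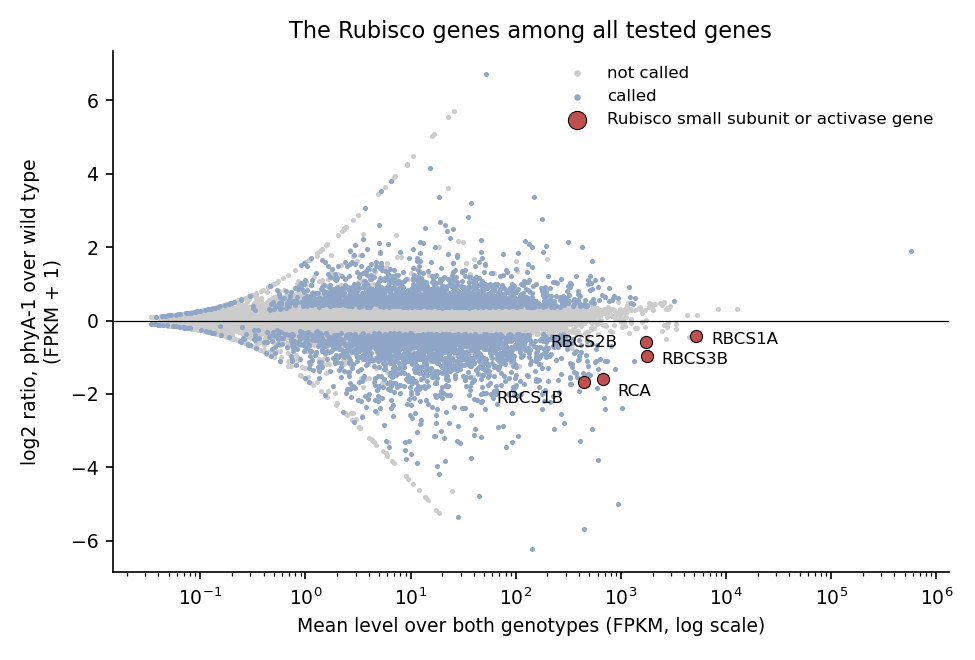
Log2 ratio of phyA-1 over wild type (FPKM plus 1) against the mean level of both genotypes (FPKM, log scale) for the 22892 tested genes, with called genes in blue, uncalled genes in grey and the 5 Rubisco genes as large red points. All 5 points lie below 0, from -0.42 for RBCS1A to -1.67 for RBCS1B, at the high end of the level axis.

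Summed over the 4 small subunit genes, which removes the split among them though not any loss or repeated counting of shared fragments, the level was 7263 FPKM in phyA-1 and 11101 FPKM in wild type. The phyA-1 sum was 65.4% of wild type, a log2 ratio of -0.61. The chromosome 5 copies together had 2797 FPKM in phyA-1 and 5110 FPKM in wild type, or 54.7% of wild type and a log2 ratio of -0.87. The chromosome 5 copies carried 60.3% of the difference in the summed level and RBCS1A carried 39.7%. As RNA came from bulk seedlings, fewer cells with these transcripts and less of them per cell cannot be told apart.

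The make-up of the small subunit transcripts differed between the genotypes in the pooled values. RBCS1A made up 61.5% of the sum in phyA-1 and 54.0% in wild type. RBCS3B made up 16.4% in phyA-1, against 20.9% in wild type. RBCS1B made up 2.94% in phyA-1 and 6.15% in wild type. The share of RBCS2B was nearly equal, at 19.1% in phyA-1 and 18.9% in wild type. The ratio of RBCS2B to RBCS3B was 1.16 in phyA-1 and 0.904 in wild type, so their order differed. Weighted by gene model lengths that are not the deposited spans given above, RBCS3B was above RBCS2B in both genotypes. The shares of RBCS3B and RBCS2B were then 18.3% and 14.99% in phyA-1 and 22.9% and 14.6% in wild type. This weighting gives shares of fragments, where FPKM is scaled to transcript length, so the orders are of different quantities. The weighted order was found with these lengths alone. With 1 pooled value per genotype, none of these differences between copies could be tested, and the split among the similar copies is uncertain.

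**Figure D3:**
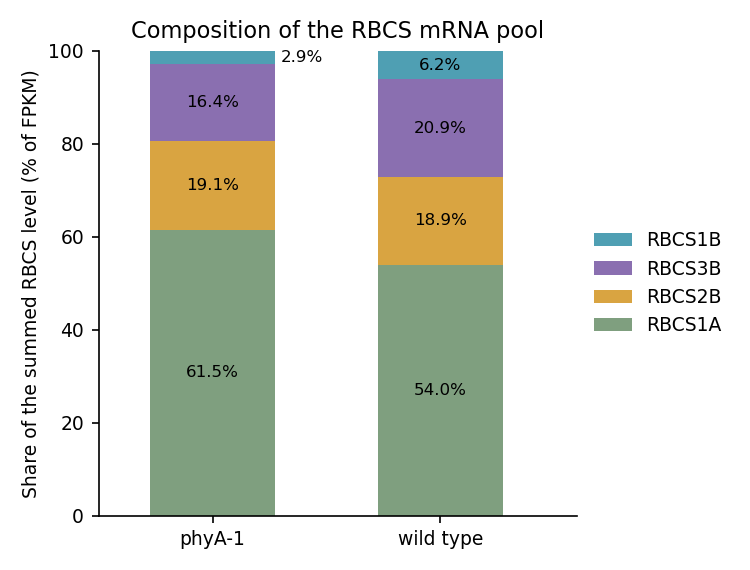
Share of each gene in the summed FPKM of the 4 small subunit genes, in percent, in phyA-1 (left) and wild type (right). RBCS1A is the largest block in both, at 61.5% in phyA-1, against 54.0% in wild type, and RBCS1B is the smallest, at 2.94% in phyA-1 and 6.15% in wild type.

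The balance between enzyme and activase transcripts differed as well. The summed small subunit level was 21.5 times that of RCA in phyA-1 and 10.9 times in wild type, a comparison per length of transcript. A test of this difference would need values per replicate.

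The sequence before the start codons was read for 3 short motifs long described in plant small subunit promoters: the G-box CACGTG, the I-box GATAAG and the GT-1 box GGTTAA. The windows were the 500 bases before the start codon in the RefSeq models, which include any 5′ leader, and both strands were searched. Of 27443 windows of this kind, 9.22% held a G-box, 23.6% an I-box, 24.4% a GT-1 box and 2.28% both a G-box and an I-box. The I-box was in all 5 windows. The G-box is shown at each gene that has one because it is the least common of the 3 over all windows (TAIR10.1, gene strand, 5′ to 3′, motif in capitals).
RBCS1A, chr1:25049491-25049520: ggaattatcttcCACGTGgcattattccag
RBCS2B, chr5:15382177-15382206: ggagttttctgcCACGTGatcttatcctag
RBCS3B, chr5:15378506-15378535: ggagttttctgcCACGTGgccttatcctag
RCA, chr2:16573579-16573608: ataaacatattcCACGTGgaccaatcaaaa
The G-box began 259 bases before the start codon in RBCS1A, 216 in RBCS2B, 217 in RBCS3B and 251 in RCA. In all 4 genes it lies before the start of the deposited gene model, but in RBCS1A it is inside the 5′ leader of the longer RefSeq transcript. The 4 genes with this match included the uncalled RBCS1A as well as the called RBCS2B, RBCS3B and RCA. The letters CACGTG were not in the reference window of RBCS1B, the copy with the lowest ratio. Whether the Ler seedlings carry the same letters before these genes was not examined.

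The I-box nearest the start codon is shown for the 4 small subunit genes because the bases after it are nearly the same in all of them (capitals mark the I-box).
RBCS1A, chr1:25049462-25049491: gcggttcaagccGATAAGggtctcaacacc
RBCS1B, chr5:15385303-15385332: aaagaaagataaGATAAGggtgtcaacacc
RBCS2B, chr5:15382148-15382177: gtggtccaaatcGATAAGggtgtcaacacc
RBCS3B, chr5:15378477-15378506: gtggtgcgtaccGATAAGggtgtcaacacc
From the I-box onward, these 18 bases were identical in the 3 chromosome 5 copies, and RBCS1A differed from them at 1 base. The 18 bases of the chromosome 5 copies occurred in 3 of the 27443 windows, those copies' own. This stretch was picked after the sites had been seen. It began 230 bases before the start codon in RBCS1A, 165 in RBCS1B, 187 in RBCS2B and 188 in RBCS3B. In RBCS1B a further I-box, which began 170 bases before the start codon, overlaps it.

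Over the 250 bases before the start codon, RBCS2B and RBCS3B were 85.3% identical, RBCS1B was 66.2% identical to RBCS2B and 66.7% to RBCS3B, and RBCS1A was 51.6% to 54.0% identical to the others. RBCS1B, with the lowest log2 ratio, -1.67, was thus the chromosome 5 copy least like its neighbours before the start codon, while its coding sequence was about as close to theirs as they were to each other. A match or a similar stretch is a description of these letters and was not tested for binding or effect.

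**Figure D4:**
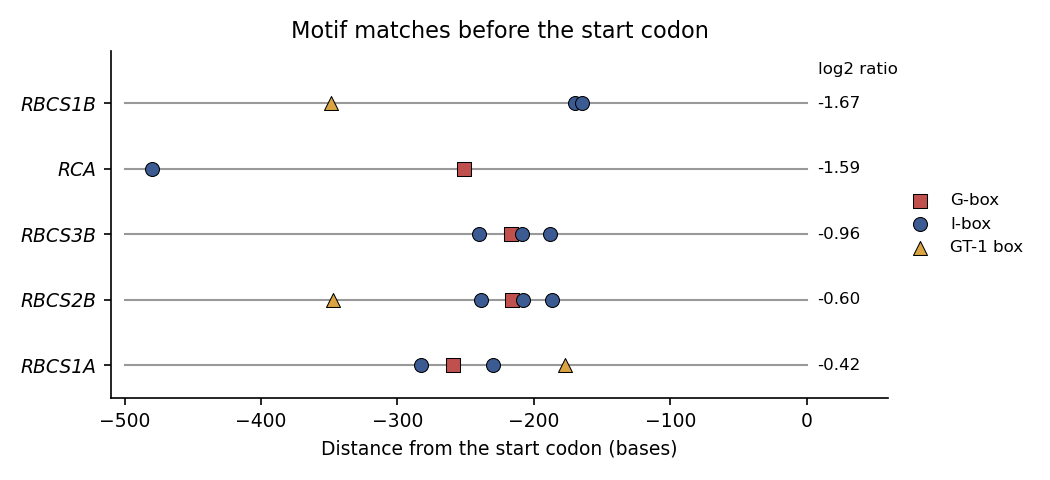
Positions of the G-box (squares), I-box (circles) and GT-1 box (triangles) in the 500 bases before the start codon of each gene, as distance in bases from the start codon, with genes ordered by log2 ratio of phyA-1 over wild type, given at the right. RBCS1A, RBCS2B and RBCS3B have a G-box between I-boxes, at nearly the same distances in RBCS2B and RBCS3B. RBCS1B has I-boxes and no G-box. A GT-1 box is in RBCS1A, RBCS1B and RBCS2B.

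Genes that make, import or maintain Rubisco, with other copies of the chaperonin family, were examined as a list of 19, chosen by role. Of the 18 that were tested, 10 fell, none rose and 8 were not called, beside 8.54% of all tested genes called lower. The uncalled genes had log2 ratios from -0.70 to 0.05. The median log2 ratio of the list was -0.57, against 0.05 over all tested genes. The large subunit gene itself, rbcL (ATCG00490), was listed at 0 in both genotypes, like all 133 chloroplast genes in the table, so no level of the large subunit transcript can be given.

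MRL1, a pentatricopeptide repeat protein that stabilises the rbcL transcript, had 9.12 FPKM in phyA-1 and 25.3 FPKM in wild type, a log2 ratio of -1.38. AT3G48420, a haloacid dehalogenase-like hydrolase in RefSeq, had 11.4 FPKM in phyA-1 and 29.5 FPKM in wild type, a log2 ratio of -1.29. SPP, the stromal peptidase that removes transit peptides from imported precursors, had 25.3 FPKM in phyA-1 and 33.9 FPKM in wild type, with q = 0.0235 in the authors' deposited table. All 3 of these genes fell.

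Among assembly chaperones, RefSeq's rubisco accumulation factor-like genes AT5G28500 and AT3G04550 both fell. AT5G28500 had 29.4 FPKM in phyA-1 and 63.1 FPKM in wild type, and AT3G04550 had 24.5 FPKM in phyA-1 and 40.5 FPKM in wild type. RBCX2, a chaperonin-like RbcX protein, had 17.1 FPKM in phyA-1 and 28.1 FPKM in wild type, a log2 ratio of -0.69. Its relative RBCX1 was not called, with 2.66 FPKM in phyA-1, 4.94 FPKM in wild type and a similar log2 ratio of -0.70, at a far lower level. AT5G51110, a pterin dehydratase-like protein, fell by 0.79 on the log2 scale, and AT3G47650, a DnaJ-type cysteine-rich domain protein, fell by 0.54.

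The genes of the chaperonin family, some of whose products fold the large subunit, divided by copy. CPN60B2 fell, with 33.3 FPKM in phyA-1 and 70.5 FPKM in wild type, a log2 ratio of -1.06, and so did CPN60B4, at 4.07 FPKM in phyA-1 and 6.65 FPKM in wild type. The abundant subunits were not called: CPN60A had 167 FPKM in phyA-1 and 216 FPKM in wild type, and CPN60B had 140 FPKM in phyA-1 and 181 FPKM in wild type, each with a log2 ratio of -0.36. Their q-values in the authors' deposited table were 0.0883 for CPN60A and 0.0774 for CPN60B. CPN20, a co-chaperonin, had 336 FPKM in phyA-1 and 408 FPKM in wild type and was not called. The difference between chaperonin copies was not tested. Of the list, AT3G04550, AT5G51110, CPN60B4, RBCX1, CPN20 and 2 other genes share a locus with another gene in the table, and their levels are less certain.

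The other steps of the Calvin cycle were examined in a list of 18 genes, all tested. In phyA-1, 13 fell, 1 rose and 4 were not called, beside 8.54% of all tested genes called lower and 8.61% called higher. The median log2 ratio was -0.82, against 0.05 over all tested genes. Among them, 2 share a locus with another gene in the table. CP12-2, a small regulatory protein that binds cycle enzymes, had the lowest log2 ratio, -2.42, with 15.3 FPKM in phyA-1 and 85.8 FPKM in wild type. FBA1, an aldolase, had 73.3 FPKM in phyA-1 and 286 FPKM in wild type, and GAPA-2, a glyceraldehyde phosphate dehydrogenase subunit, had 75.4 FPKM in phyA-1 and 236 FPKM in wild type. The ratios of RCA, at -1.59, and RBCS1B, at -1.67, lay beside that of GAPA-2, at -1.64.

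The called genes of the cycle with the smallest falls were the phosphoglycerate kinase PGK1, with a log2 ratio of -0.52, and the transketolase TKL1, with -0.61. RBCS2B, at -0.60, lay between them. The gene that rose was CP12-3, with 33.6 FPKM in phyA-1 and 21.5 FPKM in wild type, so the CP12 genes did not move together, and CP12-1 was not called, with 356 FPKM in phyA-1 and 388 FPKM in wild type. The other uncalled genes were the triose phosphate isomerase TIM, the aldolase FBA3 and the transketolase TKL2, with log2 ratios from -0.07 to -0.02. RBCS1A, at -0.42, lay between these uncalled genes and the called ones.

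**Figure D5:**
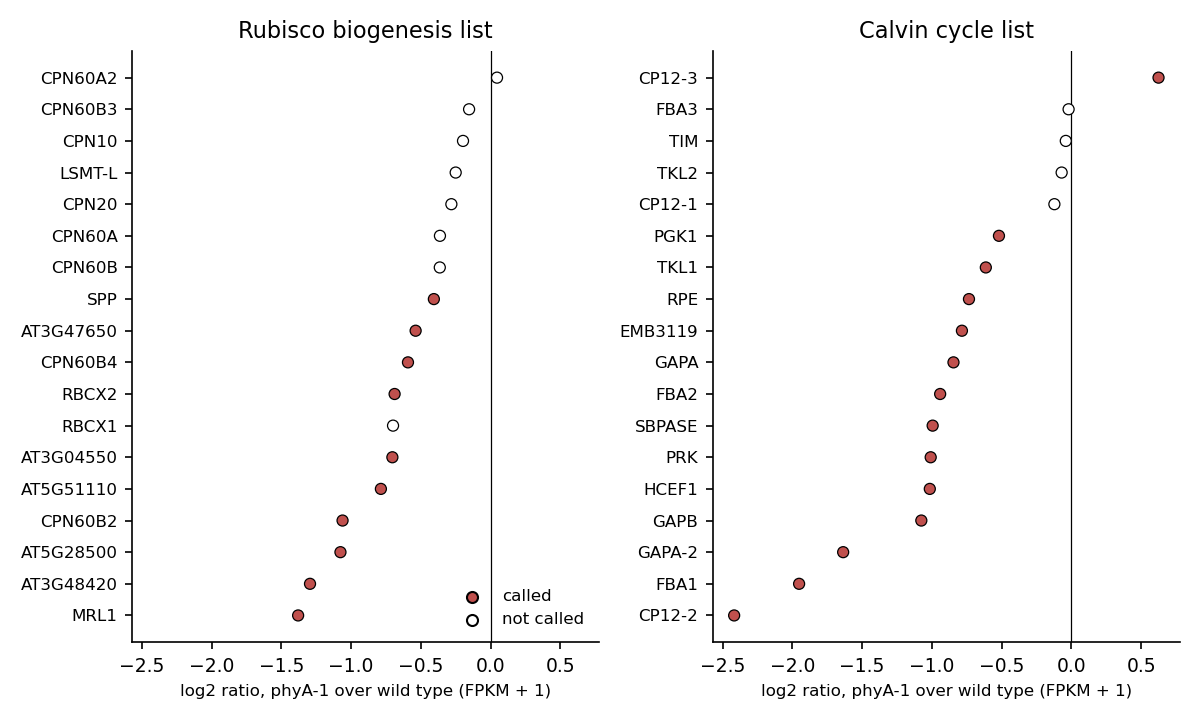
Log2 ratio of phyA-1 over wild type (FPKM plus 1) for the tested genes of the Rubisco biogenesis list (left) and the Calvin cycle list (right), with called genes filled and uncalled genes open. In the biogenesis list 17 of 18 genes lie below 0, and in the Calvin cycle list CP12-3 alone lies above 0, at 0.62.

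The genomic surroundings of the genes differed. The 2 annotated genes on either side of the chromosome 5 cluster, AT5G38396 and AT5G38400 before it and SPH8 and AT5G38437 after it, were all listed at 0 in both genotypes. Among the 15 genes on each side of the cluster, 13 were tested and 2 were called. Over all tested genes, 8.54% were called lower and 8.61% higher. The 2 called genes, AT5G38510 and AT5G38520, were named after their values were seen and had log2 ratios of -1.39 and -1.23. Beside RBCS1A, DIN9 fell, with 4.45 FPKM in phyA-1 and 9.57 FPKM in wild type, AT1G67105, a non-coding RNA in RefSeq, rose, with 21.3 FPKM in phyA-1 and 7.71 FPKM in wild type, and ABA4 and LBD40 were not called. None of the 4 genes beside RCA was called, with log2 ratios from -0.13 to 0.12.

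The tested genes nearest to each gene were found by distance on the scale of log2 (FPKM plus 1) over the 2 genotypes. The nearest to RCA was PSAF, a photosystem I subunit, with 326 FPKM in phyA-1 and 1006 FPKM in wild type, at a distance of 0.054. It was followed by FD1, a ferredoxin, at 0.12. The nearest to RBCS1B were LHCA3, a light-harvesting protein of photosystem I, at 0.12, and PSAO, another photosystem I subunit, at 0.14, and all 4 of these genes were called lower. CAB1, a chlorophyll a/b-binding protein, was nearest to both RBCS3B, at 0.089, and RBCS2B, at 0.25, and also fell, while the next for both, the ribosomal protein gene AT3G08520, was not called. The genes nearest to RBCS1A were EXT3, a cell wall extensin with 3785 FPKM in phyA-1 and 5127 FPKM in wild type, and PYK10, a glycosyl hydrolase, and neither was called. With 2 pooled points per gene, this distance describes level and ratio only. A small distance means a similar ratio by construction, so the calls of these genes are no separate finding.

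Some facts of the whole table bear on these values. Of 13 commonly used reference genes, none was called, and their median log2 ratio was 0.17, with the lowest q of 0.141 in the authors' deposited table. The gene with the highest level, AT2G01021, held 50.5% of all summed FPKM in phyA-1, against 21.8% in wild type. Without it, the 4 small subunit genes made up 0.825% of what remains in phyA-1, against 1.29% in wild type. The RNA was labelled as seedling, and transcripts of all 8 root hair, epidermis and xylem markers examined were detected in both genotypes, from 6.31 to 711 FPKM in phyA-1 and from 6.65 to 863 FPKM in wild type. Of these 8 markers, EXPA18 of root hairs rose, with 28.3 FPKM in phyA-1 and 20.9 FPKM in wild type, and the rest were not called. The part that tissue make-up has in the Rubisco values was not tested.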

How the data were processed

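RNA was measured in 3 phyA-1 and 3 wild-type libraries. The submitters' processing notes name the aligner Bowtie and the build TAIR10. The sources used here do not name the tools that estimated and tested levels. The authors deposited 1 table without a header, and its columns were recognised by position and content. It gives for each gene 1 pooled FPKM per genotype, and the authors' deposited log2 ratio, which is wild type over phyA-1, matched these FPKM values within 0.001 for 99.97% of genes. The deposited table also holds a score, from the test, with its p-value and q-value. Neither an own test over samples nor an SD was possible without values per library, and the test planned for each call was the deposited one. The authors tested 22892 of 33557 genes, and 1668 share the lowest p-value, 5e-05.

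Ratios were computed here as log2 of FPKM plus 1, phyA-1 over wild type, with Python 3.11.15, NumPy 2.4.6 and pandas 2.3.3. The ratio and a Benjamini-Hochberg adjustment were tested on simulated data. Sequences are from RefSeq (TAIR10.1) and were aligned with Biopython 1.88. At least 1 end of a RefSeq transcript matched in 64.3% of 26824 nuclear loci, and both ends matched in 38.8%. No locus ran past a chromosome end. Members and lists were chosen with earlier results of these data known. Named genes are the 5 members, PHYA, all called genes of the biogenesis list, the 3 largest and 2 smallest called changes and the uncalled genes of the Calvin cycle list, the 2 genes on each side of each locus and the 2 nearest in level. CP12-3, EXPA18 and a few uncalled biogenesis genes were added after their values were seen.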

Additional observations from a re-analysis of the deposited data

How the results depend on the processing

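Of 78 alternatives, 57 kept the call, stayed within 0.1 on the log2 scale or 1 percentage point, or left a count within 1.5 times. None reversed the direction of a ratio, median or call, but most could not have done so. A change of pseudocount, q limit or adjustment cannot reverse the direction of a gene, and every rescaling used lowered all ratios. Dividing each genotype by its summed FPKM, where 1 gene holds a large share, shifted all log2 ratios by 0.70. The median over all tested genes became -0.64, so the place of the Rubisco genes among them did not change. The ratios were then -1.12 for RBCS1A, -2.37 for RBCS1B, -1.29 for RBCS2B, -1.66 for RBCS3B, -2.29 for RCA and -1.31 for the small subunit sum. Centring on the reference genes gave -0.59 for RBCS1A, -1.84 for RBCS1B, -0.77 for RBCS2B, -1.13 for RBCS3B, -1.76 for RCA and -0.78 for the sum. Leaving out the highest gene, or centring on genes of at least 5 FPKM, moved ratios by less than 0.1. Weighting by gene model length used lengths that are not the deposited spans. It gave shares of 4.26% in phyA-1 and 8.75% in wild type for RBCS1B. For RBCS2B the shares were 14.99% in phyA-1 and 14.6% in wild type. For RBCS3B they were 18.3% in phyA-1 and 22.9% in wild type. With this weighting, which gives shares of fragments, RBCS3B was above RBCS2B in phyA-1 too, an order found with these lengths alone. At a q of 0.01 in the authors' deposited table, RBCS2B (q = 0.0199629) was no longer called, which left 3 of the 5 members; 8 biogenesis genes were lower in place of 10, without SPP and CPN60B4, 13 Calvin cycle genes as before, and over all genes 1492 were lower in place of 1955 and 1144 higher in place of 1971. Benjamini-Hochberg adjustment left the counts of members and lists as they were, with 1835 genes lower and 1715 higher. With a pseudocount of 5 FPKM the median log2 ratio of the biogenesis list was -0.37; the lowest-level genes are damped most by construction. Without genes that share a locus, an alternative chosen after seeing the data, 7 of 11 biogenesis genes and 11 of 16 Calvin cycle genes were called lower. No paired analysis was possible because the table holds only pooled columns, which carry no replicate numbers, and for the same reason no replicate could be left out. Depth per library is unknown.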
